A study of Mus musculus with 7 samples.

Results

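The first hours of light in mouse embryonic stem cells carrying an inducible Brn2 cassette were compared with the library labelled 0 h. The comparison used 4 of the 7 libraries of the series (0, 2, 4 and 6 h) and describes the genes whose values at 2, 4 and 6 h all lay on the same side of the 0 h value. Of 20294 genes, 2881 had a value of at least 5 in at least 1 of the 4 libraries and were compared. For 1644 of these the 3 early values lay on 1 side of 0 h, and for 1237 the order was mixed.

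All 4 groups were E14 cells, an embryonic stem cell line of the mouse. They grew in 2i, whose kinase inhibitors block the MEK-ERK pathway and GSK3 and keep mouse stem cells naive. Every group, 0 h included, carried the Brn2-RFP GAVPO induction cassette, in which GAVPO is a light-switched transcription factor and RFP a red fluorescent protein. Cells on an Ibidi plate were lit by an LED at 300 µW for 0, 2, 4 or 6 h, and the stated aim was an mRNA time course after Brn2 induction. The 7 libraries hold no group kept dark at the later times and no group without the cassette, so light, Brn2 and time on the plate cannot be told apart. There was 1 library per time point and thus no replicate. The sources used here do not say whether the cells are 1 clone.

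Brn2, listed as Pou3f2, belongs to the class III POU factors, which bind the octamer motif and act with SoxB1 factors in neural progenitors. Immediate early genes are transcribed within minutes of a growth factor, serum or stress stimulus and need no new protein synthesis, and ERK signalling switches on its own feedback inhibitors of the Dusp and Spry families. Id genes are direct targets of BMP signalling through Smad factors and hold back differentiation driven by basic helix-loop-helix factors.

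The deposited values behave as an RPKM, that is, as reads scaled to library depth per kilobase of a gene's genomic span, introns included. A level is thus per length of span and is called the value below. A minimum set on such a value keeps short genes with few reads and leaves out long genes with many. Esrrb, with a span of 99982 bases and about 12266 reads over the 4 libraries, was under the minimum of 5. H4c12, with a span of 312 bases and about 58 reads, was over it. A low value is thus not the same as few reads. Depth at 0, 2, 4 and 6 h, as recovered from the values, was about 14874000, 7630000, 7058000 and 13682000 reads. The 7 pluripotent stem cell markers (Pou5f1, Sox2, Nanog, Klf4, Esrrb, Zfp42 and Tfcp2l1) summed to values between 423 and 512. The 10 fibroblast or feeder markers summed to values between 2.80 and 3.92 (8 at or under 1 in all 4 libraries, Lum at 0), the 8 primitive endoderm markers to values between 0.696 and 1.58 (Ttr at 0) and the 6 trophoblast markers to values between 0.935 and 1.85. The libraries also differed with GC content. In the decile of tested genes with the lowest GC content the median log2 ratio to 0 h at 2, 4 and 6 h was -0.16, -0.05 and -0.54, and in the highest decile it was 0.21, 0.08 and 0.62. The 6 h library thus stood apart.

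Light for 2, 4 and 6 h went with at least 2-fold higher values of 33 of the 2881 genes (1.15%) and at least 2-fold lower values of 9 (0.312%). The higher genes held Trh and Utf1, genes of signalling and its control (Id1, Bmp4, Ccnd1, Dusp6, Jun and Bhlhe40), 8 replication-dependent histone genes and the neuronal tubulin Tubb3. The lower genes were led by the cell surface gene Ly6a. A gene was called where log2 of the value plus 1 differed from 0 h by at least 1 in the same direction in all 3 early libraries, so the library nearest to 0 h decides. Of the 33, 23 were under 5 at 0 h and entered the comparison through an early library only, where they had to be higher, and 3 of the 9 entered through 0 h only. Among the 1972 genes at 5 or more in all 4 libraries, 10 were called higher (0.507%) and 3 lower (0.152%). All ratios share the single 0 h library, and in such bulk samples fewer cells of a type and less RNA per cell cannot be told apart.

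Trh encodes the precursor of thyrotropin-releasing hormone. Its values were 6.16, 67.0, 49.5 and 38.6 in the order 0, 2, 4 and 6 h, which is kept for all genes below. The 3 early values lay far above 0 h, and each was lower than the one before. The nearest library, 6 h, was 6.27-fold above 0 h, with a 95% counting interval from 5.47 to 7.24. Such intervals come from approximate read numbers (about 237 at 0 h and 1369 at 6 h for Trh) and cover counting error only. In the later libraries, which are set against the same 0 h library, Trh stood at 23.0, 60.4 and 232 at 14, 24 and 48 h.

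Utf1, a chromatin-bound factor of pluripotent cells, had values of 28.7, 152, 106 and 168. Its nearest library was 4 h, 3.69-fold higher (interval 3.32 to 4.10). Rnf208, a RING finger gene, had values of 3.33, 12.2, 13.8 and 11.4. Phlda2, an imprinted growth regulator, had values of 12.2, 35.6, 39.3 and 46.3. In both of these genes the early values lay close together and well apart from 0 h. Phlda2 stood at 11.03, 16.6 and 18.5 at 14, 24 and 48 h, nearer to its 0 h value.

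The higher genes differed in their course over the early hours, since 15 of the 33 were highest at 2 h, 7 at 4 h and 11 at 6 h. Bhlhe40 is a basic helix-loop-helix repressor that takes part in the circadian clock and in stress responses. Its values of 1.24, 14.2, 7.51 and 3.52 put it 11.5-fold above 0 h at 2 h and 2.84-fold above at 6 h. Id1 had values of 0.828, 11.2, 7.37 and 3.73, from about 14 reads at 0 h. Bmp4, a BMP ligand, had values of 0.389, 5.36, 3.05 and 2.48. These 3 genes were highest at 2 h and lowest of the early libraries at 6 h. Ccnd1, cyclin D1, had values of 2.10, 12.3, 6.82 and 6.31, with 6 h close to 4 h. It stood at 8.82, 34.6 and 48.7 at 14, 24 and 48 h.

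Other called genes were as high at 6 h as at 2 h, or nearly so. Tubb3 had values of 5.40, 13.4, 12.4 and 13.5. Septin1, a cytoskeletal GTPase, had values of 14.1, 36.6, 33.8 and 41.3. Ppdpf had values of 27.7, 67.7, 64.9 and 75.2. In these genes the early values differed among themselves by less than the nearest of them differed from 0 h. The same held for Tcl1, a coactivator of Akt kinases in naive cells, at 12.1, 29.5, 27.6 and 27.5. Tubb3 also has the highest value of the 6 neuron markers, whose sum was 7.05 at 0 h and between 16.7 and 17.9 in the early libraries. Of the 6, 4 were at or under 1 in all 4 libraries. These values are per length of span, so they do not rank the markers by transcript number.

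The remaining called genes other than histones were, save for Cd24a and Rangrf, named after their values were seen. They were the atrial myosin light chain Myl7 (1.13, 5.26, 4.70 and 5.82), the deiodinase Dio3, the Wnt modulator Dact2, the exchange factor Rasgrp2, S100a10, Hsd17b14, the protease-activated receptor F2rl1, the adhesion protein Cd24a, the nucleoside transporter Slc29a1 and Rangrf. Their nearest ratios lay between 1.01 (Slc29a1 and Rangrf) and 1.42 (Myl7) on the log2 scale. Rpl32l, which met the rule for named genes, had values of 25.01, 59.5, 60.5 and 126. It is a near copy of the ribosomal protein gene Rpl32 inside Map7, and its reads may belong to either, so its value is uncertain. Reads may likewise be shared between Ccnd1 and LTO1, Septin1 and Mylpf, Rangrf and Slc25a35, and Calcoco2 and Ttll6, whose spans overlap.

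**Figure D1:**
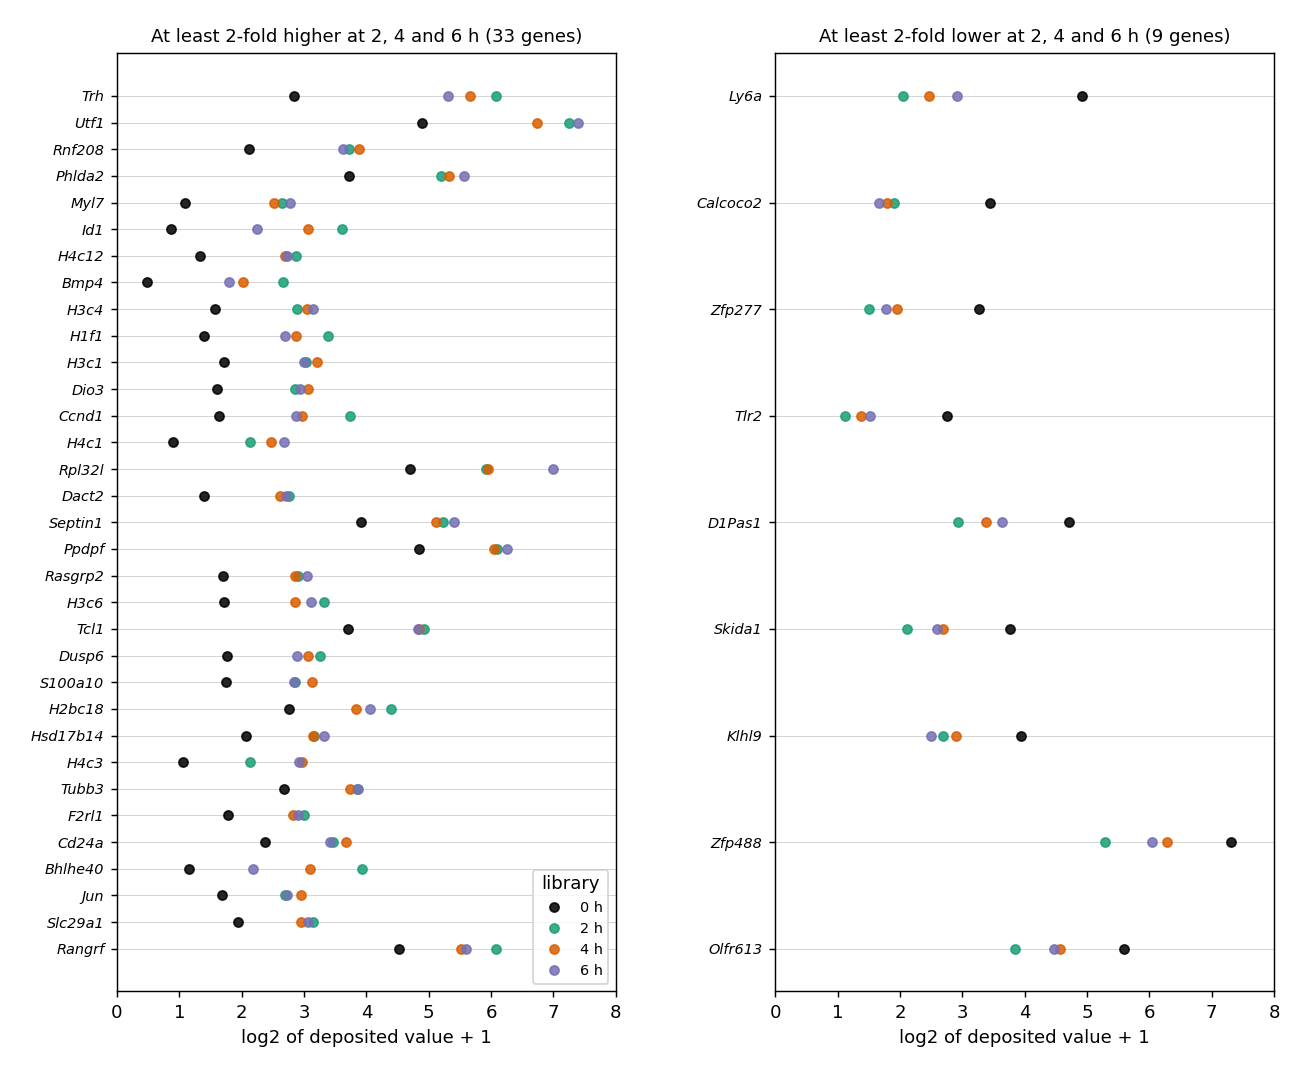
Values of the 33 genes called higher and the 9 called lower, 1 point per library. The horizontal axis is log2 of the deposited value plus 1 and genes are ordered by the ratio of the nearest early library to 0 h. The black 0 h point lies at least 1 unit from every early point, with Trh and Ly6a at the top.

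Ly6a, which encodes the surface antigen Sca-1, had values of 29.1, 3.12, 4.50 and 6.53. Its nearest library, 6 h, was 4.46-fold lower (interval 3.92 to 5.09), and it stood at 1.15, 1.21 and 4.32 at 14, 24 and 48 h. Calcoco2, an autophagy receptor, had values of 9.90, 2.74, 2.47 and 2.17. Tlr2, a receptor for bacterial lipoproteins, had values of 5.75, 1.18, 1.60 and 1.86. In these 3 genes no early value came within 3-fold of 0 h.

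Zfp488, a zinc finger gene, had the highest level among the genes called lower, with values of 158, 38.0, 76.8 and 64.6. Olfr613, from an olfactory receptor locus, had values of 47.4, 13.4, 22.8 and 21.2. D1Pas1 is a retrocopy of the helicase gene Ddx3x, with which reads can be shared, and had values of 25.2, 6.62, 9.38 and 11.4. In these 3 genes the 2 h library was lowest. Skida1 had values of 12.5, 3.34, 5.44 and 5.02. Klhl9, an adaptor of a ubiquitin ligase, had values of 14.3, 5.48, 6.43 and 4.68, lowest at 6 h. Zfp277, whose span is 130729 bases, had values of 8.62, 1.83, 2.85 and 2.41. Calcoco2, Tlr2 and Zfp277 were named after their values were seen.

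At the threshold, the genes with a value of at least 10 just inside were Rangrf (21.9, 66.6, 45.0 and 47.2) and Bhlhe40 among the higher genes, and Olfr613 and Zfp488 among the lower. Just outside lay Lin28a, an RNA-binding protein (1.99, 13.7, 7.92 and 4.96), and Mymx (10.4, 28.0, 21.7 and 23.2) on the higher side. On the lower side these were Spp1 (36.1, 15.3, 16.2 and 18.8) and Rnf113a2 (16.2, 7.53, 8.24 and 8.85).

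The limma fit compared the mean of the 3 early libraries with 0 h. At a Benjamini-Hochberg adjusted p under 0.05, 3 genes rose (0.104%) and 1 fell (0.0347%), and 301 had an unadjusted p under 0.05. Those that rose were Trh (log2 change 2.84 ± 0.34 SE, adjusted p = 0.0024 by limma), Utf1 (2.24 ± 0.32, adjusted p = 0.0080 by limma) and Rnf208 (1.63 ± 0.26, adjusted p = 0.018 by limma). Rnf208 was under 5 at 0 h and entered the fit through the early libraries only, where it was high. Ly6a fell (-2.44 ± 0.32, adjusted p = 0.0043 by limma), and Phlda2 did not pass (adjusted p = 0.0501 by limma). The fit has 2 residual degrees of freedom, which come from the spread among 2, 4 and 6 h and so hold real change with time, and the lone 0 h library is assumed to vary alike. With the GC trend removed the limma adjusted p was 0.034 for Trh, 0.035 for Utf1, 0.086 for Rnf208 and 0.055 for Ly6a, so the last 2 were no longer called; with the span trend removed Utf1 (0.061) and Rnf208 (0.13) were not. Over the alternatives tried the limma adjusted p passed for Trh in 14 of 16 (0.22 at the highest), for Utf1 in 13 of 16 (0.29), for Ly6a in 12 of 16 (0.33) and for Rnf208 in 7 of 15 (0.13). The limma count differed with the library left out: 10 genes rose and 2 fell without 2 h, 15 and 6 without 4 h, and 180 and 70 without 6 h.

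Without a fold threshold, 991 genes were higher in all 3 early libraries (34.4%) and 653 lower (22.7%). The side moved with GC content. In the lowest decile 6.25% of genes were higher and 50.3% lower, and in the highest decile 54.5% were higher and 2.78% lower. With the GC trend removed from each library, both deciles came close to each other, with 40.6% and 38.9% higher and 19.097% and 18.8% lower. Over all tested genes 1148 were then higher and 547 lower. The side as deposited also moved with the mean value over the 4 libraries. In the decile of lowest mean value 28.4% of genes were higher and 31.1% lower. In the decile of highest mean value 64.2% were higher and 8.68% lower, so lists of genes with high values have a background above 34.4%.

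With the GC trend removed, 33 genes were called at least 2-fold higher, of which 26 were among the original 33, and 5 were called lower, of which 3 were among the original 9. Trh, Utf1, Phlda2, Ccnd1 and Cd24a then had the largest nearest ratios among the higher genes that met the rule for named genes (2.31, 1.77, 1.39, 1.29 and 1.28 on the log2 scale). Jun (0.83), Tubb3 (0.87), Dact2, Slc29a1, Hsd17b14, H3c1 and H4c12 came under 2-fold. Ly6a (-1.73), Calcoco2 (-1.51) and Tlr2 (-1.06) stayed beyond 2-fold on the lower side, while Olfr613 went from -1.02 to -0.26. The transcript of Olfr613 has a GC content of 35.9%, against a median of 51.8% over the tested genes. Cited4, a transcriptional coactivator gene, was called lower with the trend removed (-1.22), and its deposited values were 33.7, 2.51, 6.55 and 21.4.

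Gene span moved with the ratio as well. The median log2 ratio at 6 h went from 0.59 in the decile of shortest spans (median 1527 bases) to -0.31 in the decile of longest spans (median 35632 bases), against 0.17 to -0.07 at 2 h and 0.17 to -0.11 at 4 h. The 33 genes called higher had a median span of 2146 bases and a median GC content of 54.9%, against 8056 bases and 51.8% over all tested genes. Of the 33, 11 were single-exon-like (33.3%), their transcript filling at least 98% of the span, against 5.73% of all tested genes; 8 of the 33 are histone genes. With the span trend removed, an alternative chosen after seeing the data, 22 genes were called higher and 12 lower, of which 19 and 8 were among the original calls. The 14 higher genes then under 2-fold were Id1 (0.89), Bhlhe40 (0.96), Jun (0.86), Cd24a (0.96), Ppdpf (0.93), Rpl32l (0.82), Rangrf (0.64) and 7 histone genes, and Zfp277 was no longer 2-fold lower. The part of GC content and span in each single result was not tested beyond the values with their trends removed.

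**Figure D2:**
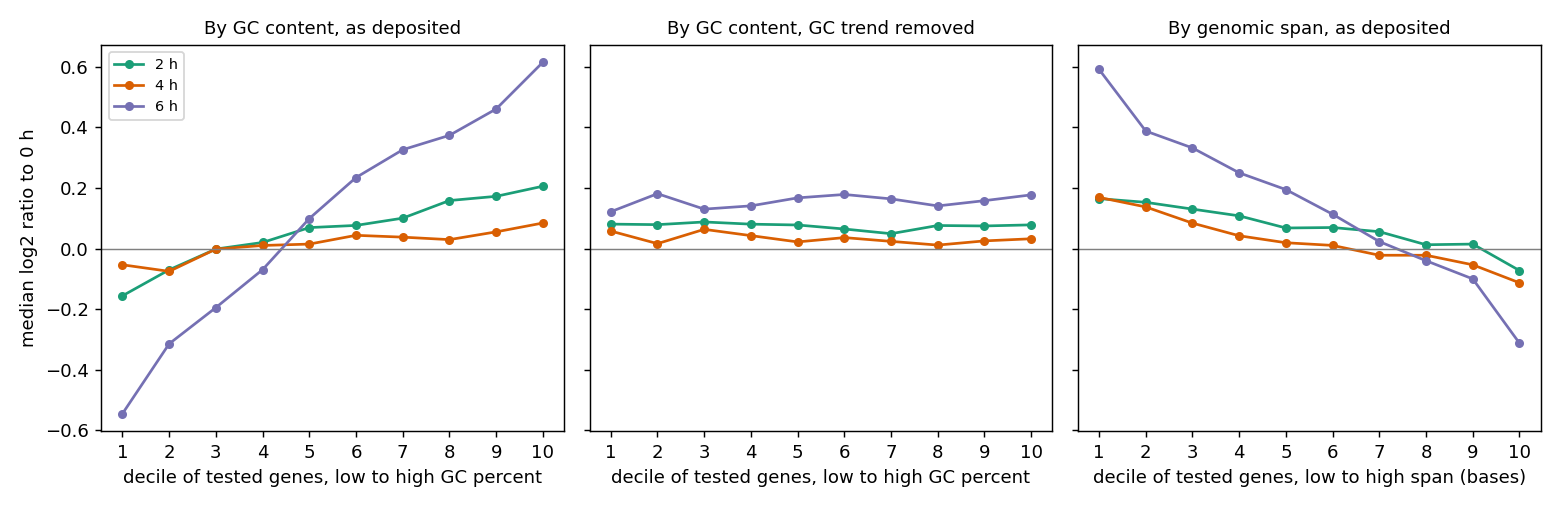
Median log2 ratio to 0 h (1 added to each value) for deciles of the 2881 tested genes ordered by transcript GC content, before and after removal of the GC trend, and by genomic span, with 1 line per early library. At 6 h the median runs from -0.54 to 0.62 with GC content and from 0.59 to -0.31 with span, and the 2 h and 4 h lines are flatter.

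The induced gene, Pou3f2, did not lie on 1 side of 0 h. Its values were 77.0, 36.9, 47.3 and 96.2, so the 2 h and 4 h libraries were below the library labelled 0 h and the 6 h library was above it. The sources used here do not say whether transgene reads enter these values. Its order stayed mixed with the GC trend removed. Pou3f1, a close relative expressed in the epiblast, was lower in all 3 early libraries at 270.5, 117, 152 and 189. Its nearest log2 ratio was -0.52, or -0.91 with the GC trend removed, and the limma adjusted p was 0.36. Pou3f4 was mixed, at 36.7, 28.8, 34.4 and 80.2. Sox2, the SoxB1 partner of POU factors, was mixed too, at 74.3, 71.8, 66.8 and 77.5. Pou3f3 was under the filter. The neuronal list has 39 genes, of which 2 were compared: Tubb3 was higher, and the proneural factor Neurod1 was mixed at 3.65, 1.77, 5.33 and 6.49. The other 37 were under a filter on value per length of span, which long genes can miss despite many reads.

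Genes of signalling responses are described next. Beside each list, the background over all tested genes is 34.4% higher, 22.7% lower and a median of 0.06 for the mean log2 ratio. A gene under 5 at 0 h entered through an early library, where it had to be higher in at least 1 library. Of 451 such genes 247 were higher in all 3 (54.8%) and 0 lower, while of the 1972 genes at 5 or more in all 4 libraries 744 were higher (37.7%) and 373 lower (18.9%). The lists were chosen with results of these data known and their counts are descriptions. Of 13 immediate early genes compared, 10 were higher and 1 lower. The list median was 0.58, and with the GC trend removed 8 were higher and 0 lower with 0.45 as the median. Of the 10, 6 entered through an early library only; of the 6 genes at 5 or more in all 4 libraries 4 were higher and 1 lower. Another 14 genes of the list were under the filter.

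Jun, the AP-1 subunit, had values of 2.21, 5.48, 6.73 and 5.62. Nr4a1, an orphan nuclear receptor, had values of 2.71, 9.30, 6.32 and 5.89. Arc, an immediate early gene known from neurons, had values of 3.27, 5.34, 7.45 and 10.2. In these genes 0 h was the lowest library, and of the list Jun alone met the 2-fold rule. Ier2 had values of 38.8, 87.8, 54.9 and 76.1. Klf2, also a factor of naive pluripotency, had values of 61.0, 151, 85.7 and 72.4, with 6 h nearest to 0 h, and it was no longer higher in all 3 with the GC trend removed (-0.21). Klf6 was the gene on the lower side, at 11.1, 7.56, 8.36 and 8.95, and was not lower in all 3 with that trend removed (0.32).

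Of 7 compared genes of the ERK feedback list, 5 were higher and 1 lower, with a median of 0.88, or 0.70 after removal of the GC trend. Of the 5, 4 entered through an early library only. Of the 3 genes at 5 or more in all 4 libraries, 1 was higher and 1 lower. Dusp6, the cytoplasmic phosphatase of ERK, had values of 2.38, 8.57, 7.34 and 6.37 and was called as deposited (1.12) and with the GC trend removed (1.32). Spry1, an inhibitor of receptor tyrosine kinase signalling, had values of 1.17, 5.51, 3.18 and 3.27. Dusp1, a nuclear MAP kinase phosphatase, had values of 7.77, 15.4, 13.3 and 13.6. Both were higher at 2 h than at 4 and 6 h. Spry2 was the lower gene, at 13.2, 9.70, 10.6 and 12.6, with 6 h close to 0 h. Etv5 was mixed, and Ccnd1, described above, is the other 2-fold member. Ccnd1 is a cyclin and not a feedback inhibitor, and it is counted again among the G1 regulators below.

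All 4 compared genes of the Id and BMP list were higher, of 19 in the list, with a median of 1.59, or 1.73 after removal of the GC trend; 3 of the 4 entered through an early library only, and the exception was Id3. Id2 had values of 1.17, 7.27, 5.64 and 3.19. Id3 had values of 9.46, 27.9, 18.1 and 17.8. Like Id1 and Bmp4, both were highest at 2 h and lowest of the early libraries at 6 h. At 2, 4 and 6 h the list median was 2.06, 1.58 and 1.14, and none of the 4 passed the limma test. Of 4 compared genes of the Nodal and Lefty list 1 was higher, the ligand Nodal at 5.72, 7.56, 6.81 and 8.29. The TGF-beta family ligand Gdf3 was lower, at 27.5, 20.8, 12.9 and 19.5, and the other 2 were mixed.

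**Figure D3:**
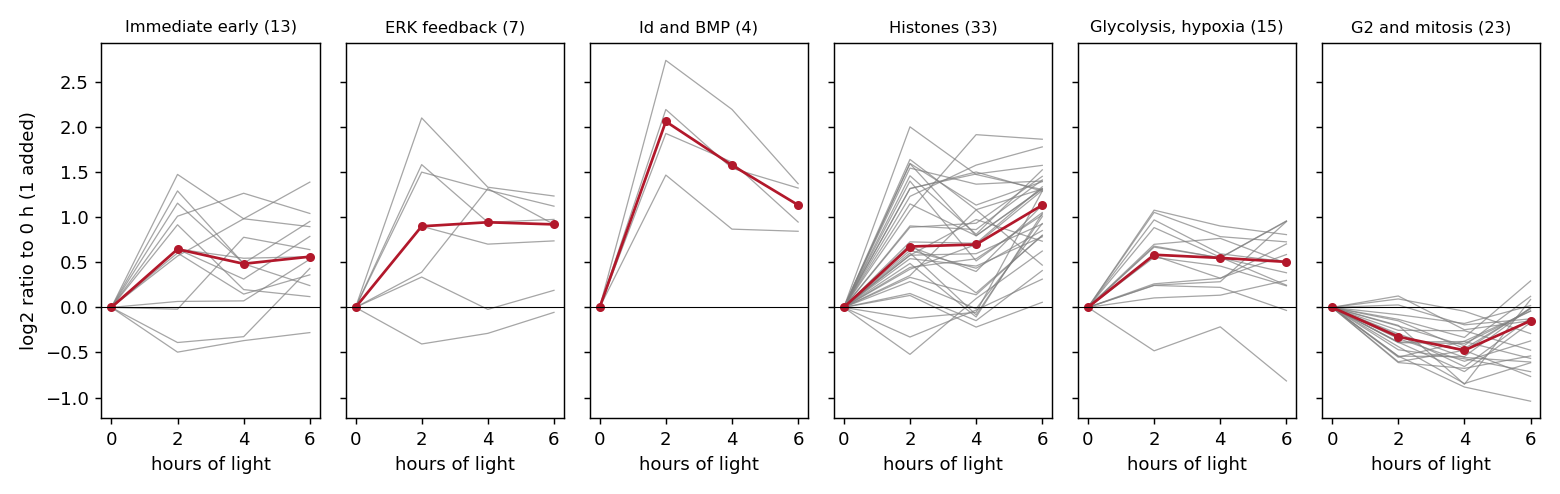
Log2 ratio to 0 h (1 added to each value) against hours of light for 6 gene lists, with a grey line per compared gene, the list median in red and the number compared in brackets. The Id and BMP genes are highest at 2 h (median 2.06) and stand at 1.14 at 6 h, histones are highest at 6 h (1.13), and the G2 and mitosis genes lie mostly below 0.

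Replication-dependent histone genes are transcribed in S phase, and their mRNA ends in a stem loop in place of a poly(A) tail. How evenly the messenger RNA libraries captured such mRNA was not tested, so these values may not follow its level in the cells. Of 33 compared, 30 were under 5 at 0 h and entered through an early library only, so they could not be lower in all 3. Of these 30, 22 were higher in all 3 (73.3%), against 54.8% of all genes that entered so, and the approximate reads of the 22 at 0 h numbered 7 to 59. The remaining 3 of the 33 were higher too, the median over the 33 was 0.76, and 8 were called. H4c12, with the largest nearest-library ratio of the list, had values of 1.51, 6.33, 5.48 and 5.64 from about 7 reads at 0 h. H3c4 had values of 1.97, 6.40, 7.27 and 7.84. H1f1, a linker histone, had values of 1.62, 9.50, 6.28 and 5.48. H3c4 was highest at 6 h and the other 2 at 2 h. H2bc18 had values of 5.74, 20.01, 13.3 and 15.7. Histone genes are near copies of each other, and reads can be split among them. They are also short (median span 476 bases) and rich in GC (60.1%). The median was 0.71 after removal of the GC trend and 0.27 after removal of the span trend, where 19 were higher and 4 lower.

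Genes of G2 and mitosis lay on the other side. Of 23 compared, 16 were lower in all 3 early libraries and 0 higher, with a median of -0.33, and none met the 2-fold rule or passed the limma test. Of the 16, 3 entered through 0 h only, and of the 16 genes at 5 or more in all 4 libraries 11 were lower. Top2a, the topoisomerase that acts in chromosome condensation, had values of 25.1, 16.9, 13.1 and 11.7. Prc1, a spindle midzone protein, had values of 8.01, 4.90, 4.64 and 5.21. Kif11, a spindle motor, had values of 6.34, 3.83, 4.28 and 3.32. The 3 genes stood about as low at 6 h as at 2 and 4 h, or lower. Mki67, the proliferation marker Ki-67, had values of 14.3, 10.05, 9.31 and 8.33. Cdk1, the mitotic kinase, had values of 15.9, 11.5, 8.42 and 10.1. For other members the 6 h library lay near 0 h, as for Cdc20, an activator of the anaphase-promoting complex, at 68.3, 61.5, 49.5 and 67.6. With the GC trend removed 15 were lower and 1 higher, with the span trend removed 13 were lower and 0 higher, and with both removed 9 were lower and 0 higher. Over all tested genes 22.7% were lower as deposited, 18.99% with the GC trend removed, 21.0% with the span trend removed and 17.1% with both removed.

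Of 20 DNA replication genes, 3 were higher, 6 lower and 11 mixed, with a median of -0.06, and their side moved with the processing. After removal of the GC trend 7 were higher and 3 lower (median 0.01). With quantile normalization 2 were higher and 10 lower (median -0.16), where 28.4% of all tested genes were lower. Among G1 regulators 6 of 8 were higher (median 0.23), of which Ccnd1 entered through an early library only. With quantile normalization 3 were higher and 1 lower (median 0.11), where 29.0% of all tested genes were higher. The inhibitor Cdkn1b was lower, at 8.62, 6.87, 6.26 and 6.93.

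Promoter sequences of the called genes were searched for known motifs. RefSeq promoter windows (GRCm38.p6, 250 bases before to 50 after each start site) were matched by symbol for 24 of the 33 genes called higher, 6 of the 9 called lower and 2371 of the 2881 tested. They were searched on both strands for 7 motifs: the octamer ATGCAAAT bound by POU factors, the cyclic AMP response element TGACGTCA, the AP-1 site TGANTCA, the E-box CACGTG, the CCAAT box CCAAT, the heat shock element GAANNTTC and the antioxidant element TGACNNNGC. Matches of different motifs shared bases most often for the E-box and the antioxidant element, in 19 of 2818 windows. Some genes have several windows, and a gene was counted where at least 1 of its windows held the motif. A match describes letters and is not a bound site.

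The octamer was found for 1 of the 24 genes called higher (4.17%), H2bc18, in 0 of the 6 called lower and in 33 of the 2371 tested genes (1.39%). Among the compared histone genes 5 of 14 of the H2A and H2B classes (35.7%) had it, H2bc18 and H2bc8 included, and 0 of 16 of the H3 and H4 classes. CCAAT boxes were found for 15 of the 24 genes (62.5%), or for 9 of 17 without the histone genes (52.9%), against 46.6% of tested genes. They were also found for all 13 G2 and mitosis genes on the lower side that had a window. The AP-1 site was found for 0 of the 24 and for 5.06% of tested genes.

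The sequences given here are those of Trh, the gene with the largest ratio, of Jun and Dusp6 for the immediate early and ERK feedback genes, of 2 histone genes with an octamer, and of Top2a, a mitotic gene with 6 CCAAT boxes picked after the matches were seen. Each runs 5′ to 3′ on the strand of the gene, capitals mark every match to the 7 motifs, and the start site is base 251.
Trh, chr6:92244601-92244900, minus strand: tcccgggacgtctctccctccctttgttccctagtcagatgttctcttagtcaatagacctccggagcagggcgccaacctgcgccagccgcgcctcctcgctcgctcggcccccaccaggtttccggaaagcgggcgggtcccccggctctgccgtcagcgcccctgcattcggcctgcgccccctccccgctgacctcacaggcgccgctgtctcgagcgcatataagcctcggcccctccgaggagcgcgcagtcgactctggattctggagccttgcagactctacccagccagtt
Jun, chr4:95052173-95052472, minus strand: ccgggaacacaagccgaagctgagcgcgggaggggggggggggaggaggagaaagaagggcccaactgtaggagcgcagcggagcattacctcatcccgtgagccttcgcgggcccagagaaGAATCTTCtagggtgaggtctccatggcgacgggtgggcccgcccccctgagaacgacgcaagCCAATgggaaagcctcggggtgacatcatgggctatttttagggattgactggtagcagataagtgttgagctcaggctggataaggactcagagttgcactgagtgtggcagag
Dusp6, chr10:99262981-99263280, plus strand: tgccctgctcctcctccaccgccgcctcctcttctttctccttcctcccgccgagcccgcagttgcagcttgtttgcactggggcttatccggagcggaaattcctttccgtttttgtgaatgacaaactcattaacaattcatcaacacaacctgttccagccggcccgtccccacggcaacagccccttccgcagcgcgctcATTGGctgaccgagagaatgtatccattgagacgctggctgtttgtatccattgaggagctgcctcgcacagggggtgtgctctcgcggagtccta
H2bc18, chr3:96269450-96269749, plus strand: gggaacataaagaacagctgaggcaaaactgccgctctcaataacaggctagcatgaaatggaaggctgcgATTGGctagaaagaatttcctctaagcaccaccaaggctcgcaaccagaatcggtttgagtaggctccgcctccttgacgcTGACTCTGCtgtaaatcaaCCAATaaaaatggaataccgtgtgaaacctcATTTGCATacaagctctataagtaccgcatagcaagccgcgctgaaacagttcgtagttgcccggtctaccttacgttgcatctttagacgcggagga
H2bc8, chr13:23571150-23571449, plus strand: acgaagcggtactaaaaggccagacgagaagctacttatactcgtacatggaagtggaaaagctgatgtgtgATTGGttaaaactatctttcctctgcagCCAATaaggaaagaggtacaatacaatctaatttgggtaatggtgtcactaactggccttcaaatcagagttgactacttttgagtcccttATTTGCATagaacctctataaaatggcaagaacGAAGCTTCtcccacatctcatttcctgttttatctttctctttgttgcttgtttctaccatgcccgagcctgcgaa
Top2a, chr11:99024140-99024439, minus strand: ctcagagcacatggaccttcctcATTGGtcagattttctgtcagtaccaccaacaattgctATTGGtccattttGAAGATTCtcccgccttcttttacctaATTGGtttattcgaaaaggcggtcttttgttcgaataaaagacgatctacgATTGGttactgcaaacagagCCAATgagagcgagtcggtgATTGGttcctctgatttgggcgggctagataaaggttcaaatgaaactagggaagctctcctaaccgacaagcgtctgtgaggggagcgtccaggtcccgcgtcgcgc
The octamer reads ATTTGCAT on the reverse strand. In H2bc18 it begins at base 203 and in H2bc8 at base 192, counted from 1 at the 5′ end. CCAAT boxes lie before it at bases 72 and 172 in H2bc18 and at bases 73 and 101 in H2bc8. H2bc8 had values of 3.39, 5.56, 7.63 and 6.31 and did not meet the 2-fold rule (nearest log2 ratio 0.58). The window of Trh held none of the 7 motifs.

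Genes of glycolysis and hypoxia lay above 0 h in 13 of 15 cases, with a median of 0.53 and none at 2-fold. Tpi1, triose phosphate isomerase, had values of 54.3, 116, 102 and 95.8. Ldha, lactate dehydrogenase A, had values of 28.1, 59.4, 49.1 and 47.1. Both were highest at 2 h. Aldoa, an aldolase, had values of 142, 228, 208 and 276. Eno1, an enolase, had values of 63.7, 95.9, 93.7 and 125. These were highest at 6 h. Hif1a, the oxygen-regulated factor that drives many of these genes, was lower, at 8.89, 6.09, 7.52 and 4.62. None of the 13 entered through an early library only, and after removal of the GC trend 14 were higher and 1 lower. With quantile normalization 10 were higher and 1 lower, with a median of 0.38.

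Genes of actin and of the SRF and YAP targets were higher in 11 of 13 cases and lower in 0, with a median of 0.61. Flna, filamin A, had values of 6.13, 15.0, 10.5 and 10.8. Tagln2, transgelin 2, had values of 11.2, 18.3, 20.496 and 30.9. Vim, vimentin, which is also a neural progenitor marker, had values of 26.1, 61.3, 50.8 and 36.5. The early library nearest to 0 h was 4 h for Flna, 2 h for Tagln2 and 6 h for Vim. Cfl1, cofilin, had values of 236, 342, 329.6 and 476, while Actb was mixed. With quantile normalization 8 were higher and 1 lower.

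Cytoplasmic ribosomal protein genes were higher in 74 of 83 cases and lower in 1, with a median of 0.45 and none at 2-fold. Rpl35 had values of 65.8, 114, 122 and 118. Rps15a had values of 30.4, 48.4, 60.7 and 54.4. The lower gene was Rpl3, at 449, 373, 349 and 303. These genes are abundant and their transcripts short, and the list followed the scaling. With quantile normalization 35 were higher and 11 lower (median 0.10), where 29.0% of all tested genes were higher, 28.4% lower and their median 0.0015. With the trend on exonic length removed 45 were higher and 7 lower, where 33.5% of all tested genes were higher and 22.1% lower. Of 69 genes of oxidative phosphorylation, 43 were higher and 5 lower (median 0.26), or 23 and 14 with the exonic length trend removed. Atp5k, a subunit of the ATP synthase, had values of 86.8, 152, 136 and 149.8.

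Genes of the heat shock list and of the Atf4 list lay more often below 0 h than above it. Of 22 heat shock and chaperone genes, 2 were higher and 11 lower, with a median of -0.20, or -0.05 after removal of the GC trend. At 2, 4 and 6 h the list median was -0.02, -0.07 and -0.45. Hspa5, the chaperone BiP of the endoplasmic reticulum, had values of 71.2, 50.9, 39.4 and 36.8. Hspa9, its mitochondrial relative, had values of 39.9, 30.2, 28.4 and 24.1. Both were lowest at 6 h. Hspb1, a small heat shock protein, was on the higher side, at 279.8, 434, 404 and 587.

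Of 28 Atf4 and endoplasmic reticulum stress genes, 5 were higher and 14 lower, with a median of -0.24, or -0.28 after removal of the GC trend. Atf4, the transcription factor of the integrated stress response, had values of 236, 133, 127 and 173. Pdia4, a disulfide isomerase, had values of 17.4, 11.96, 9.67 and 10.3. Gars, glycyl-tRNA synthetase, had values of 13.7, 9.78, 9.94 and 8.66. For Pdia4 and Gars the early libraries differed among themselves by less than the nearest differed from 0 h, while for Atf4 the 6 h library stood between 0 h and the others. Hspa5, described above, belongs to this list too and is counted in both. The p53 list was even, with 5 of 21 higher and 5 lower. Of 26 Nrf2 antioxidant genes 2 were higher, 4 lower and 20 mixed, with a median of 0.01.

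**Figure D4:**
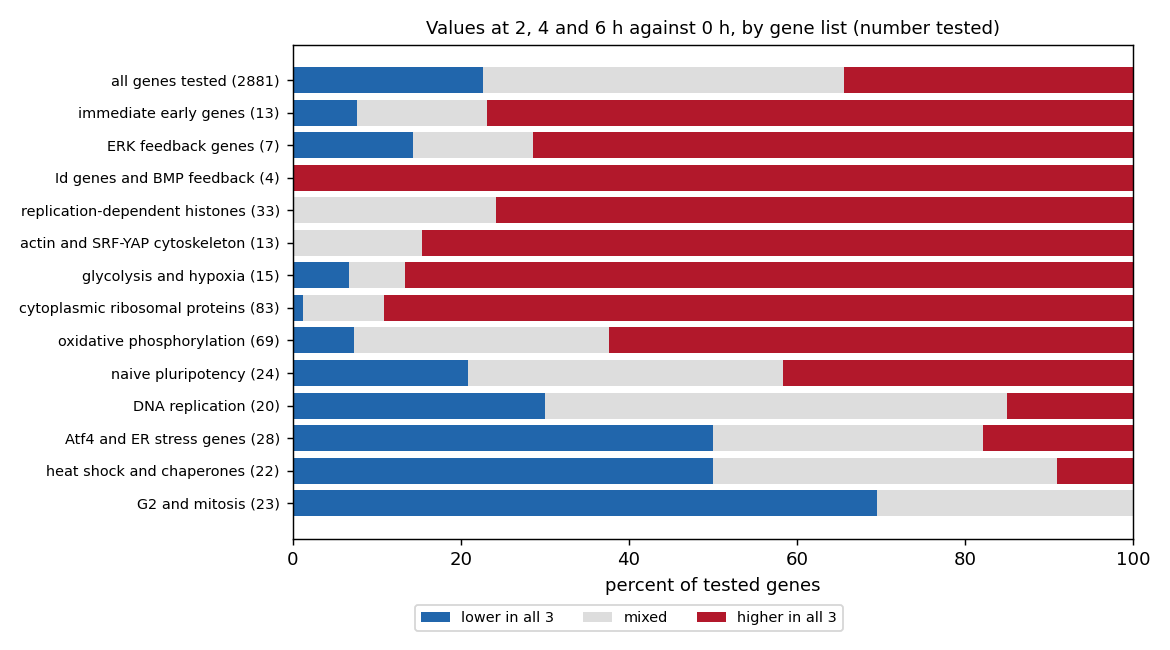
Percent of compared genes higher in all 3 early libraries (red), lower in all 3 (blue) or mixed (grey), for 13 gene lists and for all 2881 genes, with the number compared in brackets. Over all genes 34.4% were higher and 22.7% lower, ribosomal protein genes were higher in 74 of 83 cases and G2 and mitosis genes lower in 16 of 23.

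Pluripotency genes lay on both sides of 0 h. Of 24 naive pluripotency genes, 10 were higher and 5 lower (median 0.09), and of 11 core factors 4 were higher and 2 lower (median 0.08). Tcl1 and Utf1 met the 2-fold rule. Nr0b1, the corepressor Dax1, had values of 15.3, 46.3, 36.0 and 28.8. Tfcp2l1, a factor of the naive network, had values of 9.68, 20.8, 16.1 and 12.6. Both were highest at 2 h and nearest to 0 h at 6 h. On the lower side, Lifr, the receptor of the cytokine LIF, had values of 6.89, 2.67, 2.33 and 3.52. Lifr was under 5 in all early libraries and entered through 0 h only, so it had to be lower. Spp1, which encodes osteopontin, went from a nearest ratio of -0.90 to -0.34 with the GC trend removed.

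Pou5f1, which encodes Oct4, was higher in all 3 early libraries, at 154, 219.6, 233 and 204, with a nearest log2 ratio of 0.41, or 0.10 after removal of the GC trend. Nanog was mixed, at 81.4, 81.6, 51.6 and 56.4. Of 8 formative and primed epiblast genes 4 were higher, among them Zic2 at 8.09, 16.1, 15.4 and 9.89, and Pou3f1 was the 1 lower gene.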

How the data were processed

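Messenger RNA libraries (RNeasy extraction and Lexogen SENSE kit, per the labels' protocols) gave 1 deposited value per RefSeq transcript and library. The submitters' processing notes name Bowtie2 and mm9; the counter, the use of strand and the versions were not given in the sources used here. No header names the unit of the deposited values (recorded as other). They behave as an RPKM over genomic span: with spans from GENCODE M21 (GRCm38), between 80.0% and 81.2% of low values came out whole to within 0.1 read, where chance gives 20%. Read numbers are therefore approximate, and no coordinates of the deposited table are used. Of 30673 rows, 3320 start-site rows were 0 in every library, and 26245 rows were matched to symbols by accession. For each gene the row of highest mean over 7 libraries was used; 17413 genes lay under the minimum of 5, of which 14576 were above 0.

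Ratios are of log2(value + 1), which understates the change of low genes. limma 3.58.1 (lmFit, eBayes with trend, R 4.3.3) was fitted over all 2881 genes and was tested on simulated data. The simulation gave every library the same spread, so it cannot show whether the lone 0 h library varies like the others. Trends were natural splines (5 degrees of freedom) of each library's deviation from gene means; GC content was known for 2880 genes. The members and the 36 gene lists were chosen with earlier results of these data known. Genes with related names (Rps6k, Rpl32l, H1f10 and the like) were taken off the lists after values were seen.

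Named genes were Pou3f2, Pou5f1, Sox2 and Nanog, per direction up to 12 called genes of largest nearest ratio with a value of at least 10 and at least 100 reads, up to 4 members per list and those needed for its range, 2 genes per direction on either side of the threshold, and 5 per direction with the GC trend removed. Alternatives were the pseudocount, filter, scaling, fold, transcript row, overlapping genes, GC and exonic length trends and each early library left out. Removal of span trends was added after seeing the data.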

Additional observations from a re-analysis of the deposited data

How the results depend on the processing

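The counts of genes at least 2-fold higher (33) and lower (9) became 6 and 1 with a pseudocount of 5, 9 and 4 with a minimum value of 20, 123 and 42 at 1.5-fold and 1 and 1 at 4-fold (Trh and Ly6a). With the GC trend removed 5 were lower, and leaving out an early library gave 38 to 47 higher and 10 to 14 lower (14 without 6 h). Ly6a, Phlda2, Septin1, Trh and Utf1 were 2-fold under every alternative with a value other than 4-fold, and 15 genes under all of these but the pseudocount of 5. Some of these alternatives could not remove a call. They were a pseudocount of 0.1, a lower or absent filter and leaving out an early library, and all 42 calls stayed under each. Under the other alternatives the counts lay within 1.5 times, for example 36 and 6 with median-ratio scaling and 32 and 10 with quantile normalization. Among genes on 1 side without a fold threshold, 991 higher and 653 lower became 1818 and 2200 with a minimum of 1, 400 and 108 with a minimum of 20 and 3517 and 5634 without a filter. Leaving out an early library gave 1140 to 1250 higher and 747 to 1023 lower. The share of higher genes among these was 60.3%, against 50.5% with quantile normalization, 78.7% with a minimum of 20, 45.2% with a minimum of 1, 38.4% without a filter and 71.4% with span and GC trends removed. Median-ratio scaling moved the median of all genes from 0.06 to 0.12.

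The limma counts (3 rose, 1 fell) became 8 rising with a pseudocount of 0.1, 2 falling with a pseudocount of 5, 4 falling with a minimum of 1, 20 and 2 with a minimum of 20, 0 and 113 without a filter, 19 and 3 with median-ratio scaling, and 1 rising with the span trend removed. They were 0 and 0 with quantile normalization (283 genes at an unadjusted p under 0.05), and 0 fell with the GC trend removed (347 genes at an unadjusted p under 0.05 in either direction). Leaving out an early library gave 10 to 180 rising and 2 to 70 falling. The causes of these moves were not tested. The 0 h library cannot be left out, so a property of that library alone would enter every ratio. At depths of about 7058000 to 14874000 reads, genes with few reads at 0 h, such as Id1 (14) and H4c12 (7), have wide counting intervals for the ratio of the nearest library (2.53 to 8.89 and 1.31 to 10.8). No paired analysis was possible because each time point has 1 library.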
